A study of Mus musculus with 2 samples.

Results

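The genes of the ATF4 amino acid response and the cytosolic aminoacyl-tRNA synthetases were compared in the small intestine of mice kept on a food antigen-free diet (FAF) that contains amino acids, and of mice on conventional chow (Conv). The group consists of 34 genes of this pathway, chosen by name, and they were found on the array by the gene name or the current symbol of the probe's transcript. They had 58 of the 41174 probes on the array that are not controls, and all 34 were measured, among 17162 measured genes. A probe counted as measured if the scanner software placed it well above background in FAF or in Conv on each of the 2 arrays. The members comprise 4 enzymes of asparagine and serine synthesis, 6 further enzymes of amino acid and folate metabolism, 4 transcription factors, 8 stress effectors and 12 synthetases.

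Both diet groups were C57BL/6 mice aged 6 to 8 weeks. The FAF mice had lived on the amino acid diet for 5 generations at the longest, and the Conv mice were fed a conventional chow. The labels mention specific-pathogen-free and germ-free mice without saying which of them gave the RNA, and they do not say whether a sample came from 1 mouse or a pool. A single RNA sample of each diet was hybridised on 2 two-colour Agilent arrays, with FAF in Cy5 and Conv in Cy3 on the first and the dyes exchanged on the second. Every value below therefore describes these RNA samples, and no test between the diets is possible. Because whole tissue was taken, fewer cells of a type and less RNA per cell cannot be told apart.

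The amino acid response starts when uncharged tRNAs activate the kinase GCN2, which phosphorylates the initiation factor eIF2. General translation then slows, while translation of the transcription factor ATF4 increases, so that the Atf4 transcript reports on the pathway only in part. ATF4 pairs with C/EBP proteins on composite DNA elements and turns on amino acid synthesis, amino acid import, the charging of tRNAs and feedback inhibitors. The same arm is entered from stress of the endoplasmic reticulum through the kinase PERK, with CHOP (the Ddit3 product) and TRIB3 further down.

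The composite element was looked for first in the promoters, as the letters TGATGNAA on either strand (TTNCATCA on the other), in RefSeq windows of build GRCm38.p6 from 250 bases before to 50 bases after a transcript start. Such windows were found for 28 of the 34 genes, 31 windows in all. The letters occurred in the windows of 11 genes, against 3.97% of all 32851 windows in the table. The form TGATGCAA, which is contained in the first motif, occurred in 7 of the 31 windows and in 0.895% of all windows. Several of these genes are known ATF4 targets through such elements, so the count is a description of the chosen genes. Most matches are printed here with the motif in capitals, in the direction of the gene. Among the printed genes Trib3 alone had a ratio above 0. The matches of Trib3, Iars and Yars begin after the transcript start, at bases 15, 8 and 4. For Pck2 and Yars, and for Aars and Vldlr below, the window belongs to a transcript start that differs from the outer start of the gene.
Asns (chr6:7693189-7693268, minus strand): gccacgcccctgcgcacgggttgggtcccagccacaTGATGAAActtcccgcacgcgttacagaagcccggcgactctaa
Nupr1 (chr7:126625537-126625616, minus strand): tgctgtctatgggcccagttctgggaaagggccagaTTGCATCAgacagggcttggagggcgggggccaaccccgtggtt
Chac1 (chr2:119351013-119351092, plus strand): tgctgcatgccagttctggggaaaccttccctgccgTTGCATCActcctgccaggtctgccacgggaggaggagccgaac
Pck2 (chr14:55540127-55540206, plus strand): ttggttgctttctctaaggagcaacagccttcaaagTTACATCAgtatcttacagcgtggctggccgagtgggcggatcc
Trib3 (chr2:152344036-152344082, minus strand): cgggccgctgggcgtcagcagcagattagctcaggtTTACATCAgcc
Tars (chr15:11399634-11399709, minus strand): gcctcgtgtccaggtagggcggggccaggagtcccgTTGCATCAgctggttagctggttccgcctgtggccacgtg
Iars (chr13:49682101-49682154, plus strand): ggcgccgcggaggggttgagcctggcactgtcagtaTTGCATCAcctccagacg
Yars (chr4:129189870-129189927, plus strand): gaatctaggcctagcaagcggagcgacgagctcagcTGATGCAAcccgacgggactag
Gars (chr6:55037935-55038014, plus strand): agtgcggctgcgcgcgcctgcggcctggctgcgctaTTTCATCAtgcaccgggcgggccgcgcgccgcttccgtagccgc

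The other matches were in Aars, with TTGCATCA starting 112 bases before its transcript start and TTTCATCA just after that start, and in Vldlr, with TTGCATCA starting 200 bases before. The Asns match is the start of the element first described as the nutrient-sensing response element in the human gene. Phgdh, Psat1, Atf4, Ddit3 and 13 other members had a window without these letters, and Cth, Cars, Eif4ebp1, Lars, Nars and Wars had no window in the table. Of the 11 genes with a match 10 were below 0 on both arrays and 1 above, with a median log2 ratio of FAF over Conv of -0.49. Of the 17 with a window but no match 11 were below and 5 above, with a median of -0.34, and the difference between these sets was not tested. Of all 34 members 26 were below and 7 above, and of all measured genes 39.4% were below and 38.7% above.

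The ratios of the response did not run one way. Asparagine and serine synthesis, mitochondrial folate enzymes, Nupr1, Chac1 and every synthetase were below 0 in FAF over Conv, while Trib3, Ddit3 and Cth were above 0. A rule of size asked for a mean difference of 2-fold or more, and for 1.5-fold or more in the same direction on each array. By it 3 of the 34 genes were lower in FAF and 0 were higher, while it took 0.88% of all measured genes as lower, 1.53% as higher and 2.41% in either direction. When a mean of 1.5-fold was enough and the arrays only had to share the sign, 9 members were lower and 1 was higher, against 3.59% and 4.52% of all genes. On both arrays 26 members were below 0 and 7 above, where 39.4% and 38.7% of all genes were. The median log2 ratio was -0.43 over the 34 members and 0.00 over all measured genes, whose middle part, from the 25th to the 75th percentile, ran from -0.165 to 0.164.

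**Figure D1:**
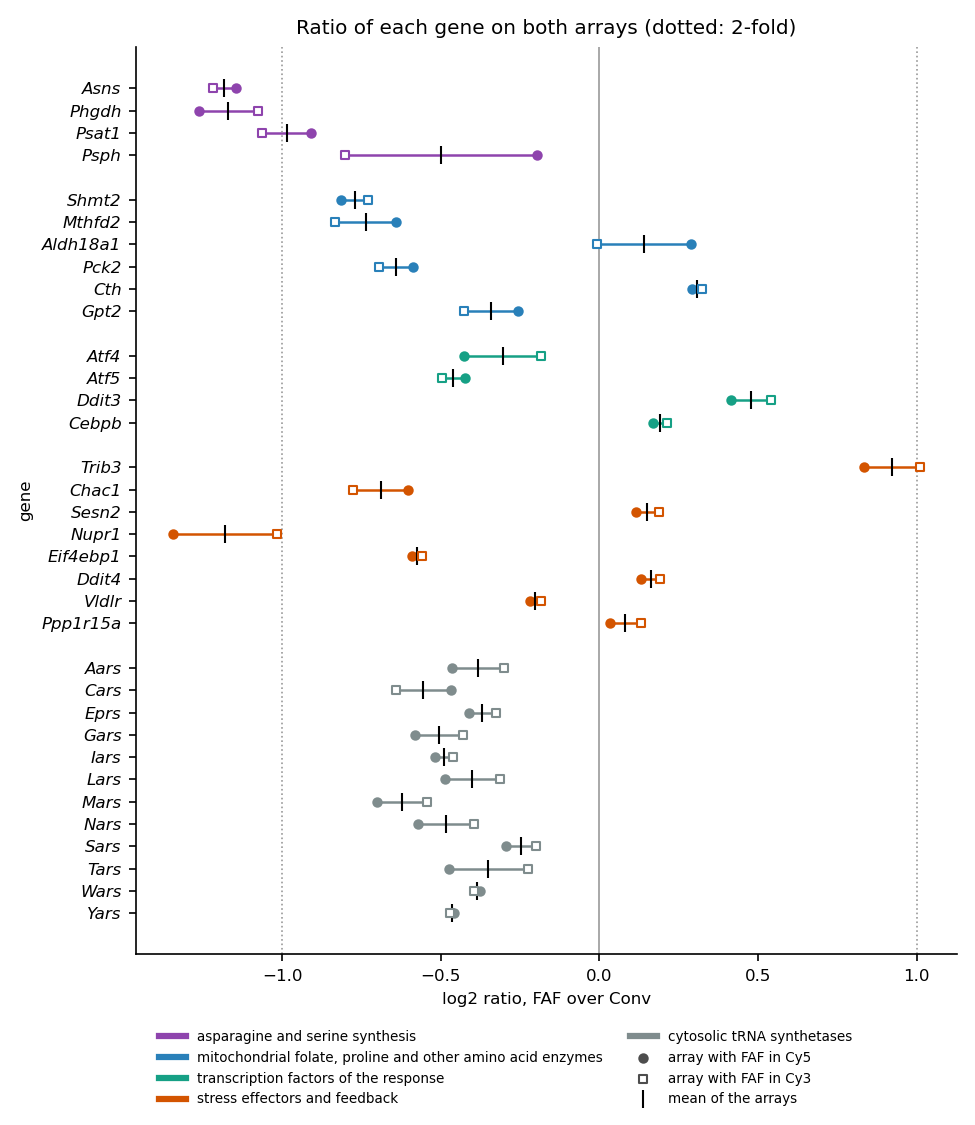
Log2 ratio of FAF over Conv for the 34 genes, ordered by role, with a filled circle for the array with FAF in Cy5, an open square for the array with FAF in Cy3 and a bar for their mean. The means of all 12 synthetases sit between -0.25 and -0.62, whereas those of the stress effectors run from Nupr1 at -1.18 to Trib3 at 0.92.

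Asns, asparagine synthetase, makes asparagine from aspartate with glutamine as the nitrogen donor. Its normalised intensity, in log2 units as all intensities here, was 11.43 in Cy5 and 11.32 in Cy3 in FAF, against 12.58 in Cy3 and 12.53 in Cy5 in Conv. Both FAF values lay more than 1 unit below both Conv values, and wherever values are paired below, the array with FAF in Cy5 comes first. The log2 ratio was -1.18 ± 0.04, where ± gives how far each array lies from the mean of the pair, a measure of dye and hybridisation error that leaves out the spread between mice. This is 2.27-fold lower in FAF. The probe lies on chromosome 6 at 7625194 to 7625253 of build mm9, on the minus strand.

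Phgdh catalyses the first and committed step of serine synthesis from glucose. Its brightest probe read 9.90 in Cy5 and 10.002 in Cy3 in FAF, against 11.17 in Cy3 and 11.08 in Cy5 in Conv, a log2 ratio of -1.17 ± 0.09. The diets did not overlap. Its other measured probes stood at -1.05, sharing 15 of 60 bases with the first, and at -0.77, so the size of the difference depended on the probe and the mean over probes fell short of 2-fold. Psat1, the aminotransferase of the next step, read 7.91 and 7.85 in FAF, against 8.82 and 8.91 in Conv. At -0.99 ± 0.08, or 1.98-fold, it narrowly missed the rule. Psph, the phosphatase of the last step, read 9.14 in Cy5 and 8.90 in Cy3 in FAF, against 9.34 in Cy3 and 9.70 in Cy5 in Conv. The mean ratio of -0.50 hid a gap between the arrays, which gave -0.20 and -0.80. The other Psph probe, which shares 40 of 60 bases, showed the same gap around -0.44.

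**Figure D2:**
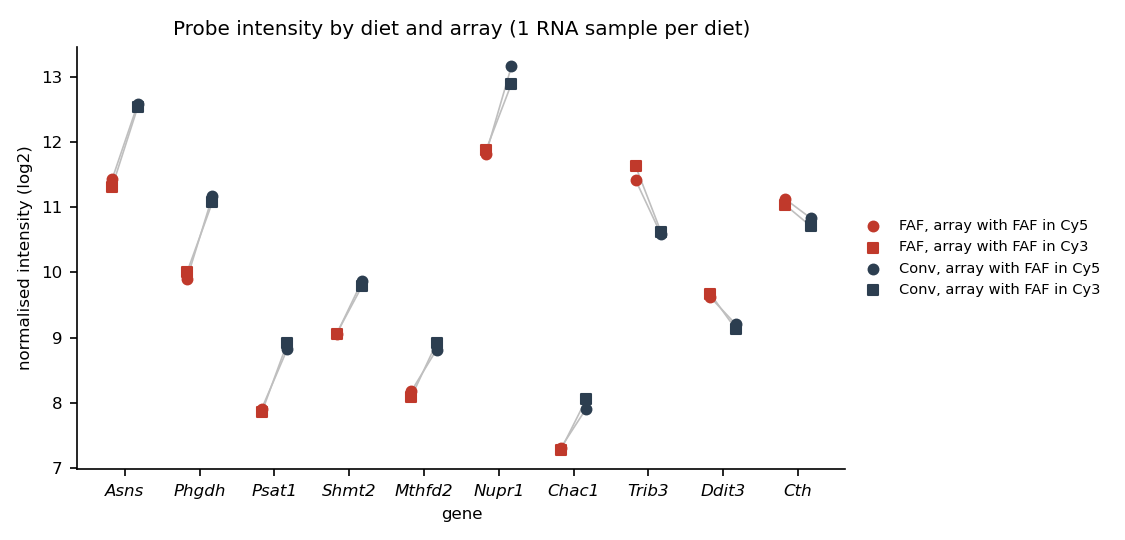
Normalised log2 intensity of 10 genes in FAF (left) and Conv (right), with lines joining the diets hybridised to the same array, circles for the array with FAF in Cy5 and squares for the array with FAF in Cy3. Levels of different genes are on different probes and are not comparable. FAF is below Conv on both arrays for Asns, Phgdh, Psat1, Shmt2, Mthfd2, Nupr1 and Chac1, and above Conv for Trib3, Ddit3 and Cth.

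The enzymes that carry serine carbon into the mitochondrial folate pool were below 0 as well. Shmt2, which splits serine into glycine and a one-carbon unit, read 9.05 and 9.06 in FAF, against 9.86 and 9.79 in Conv, a log2 ratio of -0.77 ± 0.04. Mthfd2, the dehydrogenase and cyclohydrolase that oxidises this unit, read 8.17 and 8.09 in FAF, against 8.82 and 8.92 in Conv, a log2 ratio of -0.74 ± 0.10. Pck2, the mitochondrial phosphoenolpyruvate carboxykinase, read 10.36 and 10.31 in FAF, against 10.95 and 11.01 in Conv, and stood at -0.64 ± 0.05. These 3 passed 1.5-fold and none passed 2-fold, and in each both FAF values were below both Conv values. Of all measured genes 3.59% were lower by 1.5-fold and 0.88% by the 2-fold rule, and 34.4% had their FAF values so placed. Gpt2, mitochondrial alanine aminotransferase, was smaller at -0.34 ± 0.08.

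The remaining members of this group were not lower in FAF. Cth, which makes cysteine from cystathionine, read 11.13 and 11.04 in FAF, against 10.84 and 10.71 in Conv, and its log2 ratio was 0.31 ± 0.02. Aldh18a1, which makes the precursor of proline and ornithine from glutamate, had 0.29 on the array with FAF in Cy5 and -0.01 on the other, and its diets overlapped. The median over the 6 genes was -0.49, and over the 4 genes of asparagine and serine synthesis it was -1.08.

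Among the transcription factors, Atf4 itself read 10.56 and 10.71 in FAF, against 10.99 and 10.90 in Conv. Its ratio of -0.31 ± 0.12 left the diets without overlap but close together. Atf5, a related factor that is also controlled through translation, stood at -0.46 ± 0.04. Ddit3, which encodes CHOP, a factor of prolonged stress, read 9.62 and 9.67 in FAF, against 9.20 and 9.13 in Conv, and stood at 0.48 ± 0.06. Cebpb, a C/EBP partner of ATF4, had 0.19 on both of its probes. None of the 4 passed 1.5-fold, and their directions were split evenly. Of all measured genes 3.59% were lower and 4.52% higher by 1.5-fold. On both arrays 39.4% of them were below 0 and 38.7% above. Ddit3 and the synthetase gene Mars, or Mars1, are neighbours on chromosome 10 that end toward each other, with RefSeq ends that overlap by 71 bases in GRCm38.p6. Their nearest probes lie 1118 bases apart on opposite strands in mm9, and the ratios were 0.48 for Ddit3 and -0.62 for Mars.

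The stress effectors held both the lowest and the highest values outside the synthesis enzymes. Nupr1, a small nuclear protein induced by many stresses, read 11.82 in Cy5 and 11.88 in Cy3 in FAF, against 13.17 in Cy3 and 12.90 in Cy5 in Conv. The log2 ratio was -1.18 ± 0.16, or 2.27-fold lower in FAF, on a probe at positions 133766978 to 133767037 of chromosome 7 in mm9. Chac1, an enzyme that degrades glutathione, was dim, at 7.31 and 7.27 in FAF, against 7.91 and 8.05 in Conv. Its log2 ratio was -0.69 ± 0.09 here and -1.08 in the scanner software's own log ratio, which adds no offset to the signal. Eif4ebp1, which holds back cap-dependent translation, stood at -0.57 ± 0.02.

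Trib3, a pseudokinase that ATF4 and CHOP induce and that inhibits ATF4 in turn, went the other way. It read 11.42 in Cy5 and 11.63 in Cy3 in FAF, against 10.58 in Cy3 and 10.62 in Cy5 in Conv. The diets did not overlap, and the ratio was 0.92 ± 0.09, or 1.89-fold, just short of the rule. Its other probe, at a different place in the same transcript, stood at 0.65. The remaining effectors were near 0. Sesn2 and Ddit4, both inhibitors of the growth kinase mTORC1, had 0.15 ± 0.04 and 0.16 ± 0.03, and the other Sesn2 probe had -0.05. Ppp1r15a, the phosphatase subunit that undoes the phosphorylation of eIF2, had 0.08 ± 0.05, and the lipoprotein receptor Vldlr had -0.20 ± 0.02. Over the 8 genes 4 were below 0 on both arrays and 4 above, with a median of -0.06. Of all measured genes 39.4% were below and 38.7% above.

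The 12 cytosolic synthetases, which attach amino acids to their tRNAs, had the narrowest range of ratios among the 5 role groups. All 12 were below 0 on both arrays, where 39.4% of all genes were. In all 12 both FAF intensities lay below both Conv intensities, as in 34.4% of all genes. The differences were small. The median was -0.43, 0 genes passed 2-fold and only Mars, the methionine enzyme, passed 1.5-fold, at -0.62 ± 0.08. Of all measured genes 0.88% were lower by the 2-fold rule and 3.59% by 1.5-fold. Mars read 9.50 and 9.69 in FAF, against 10.20 and 10.24 in Conv. At the other end was Sars, the serine enzyme, at -0.25 ± 0.05, with 12.22 and 12.29 in FAF, against 12.52 and 12.49 in Conv.

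Between these ends stood Cars for cysteine at -0.55 ± 0.09, Gars for glycine at -0.51 ± 0.07, Iars for isoleucine at -0.49 ± 0.03, Nars for asparagine at -0.48 ± 0.09 and Yars for tyrosine at -0.46 ± 0.01. Lars for leucine stood at -0.40 ± 0.09, Wars for tryptophan at -0.39 ± 0.01, Aars for alanine at -0.38 ± 0.08, Eprs, which charges both glutamate and proline, at -0.37 ± 0.04, and Tars for threonine at -0.35 ± 0.13. Neighbours in this order differed by less than the gap between their arrays in most cases, so the order within the set carries little. Levels in FAF ran from 9.18 to 12.52 and in Conv from 9.75 to 12.80, and each of these probes was well above background in both diets on both arrays.

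Repeated probes gave a check within the same arrays. All 26 measured synthetase probes were below 0 on both arrays, against 37.7% of all 25440 measured probes. The 4 probes of Eprs ranged from -0.45 to -0.37 and the 3 of Cars from -0.55 to -0.41, and some of these share bases. Other genes were less even. The 3 probes of Lars ranged from -0.66, past 1.5-fold, to -0.36, while the brightest and the other probe had -0.35 and -0.19 for Tars and -0.39 and -0.20 for Wars. The probe for the RNA ENSMUST00000142770 of Aars had -0.04, and one for the cDNA AK010975 of Iars, which was well above background on only 1 array in FAF, had -0.05. Both were dim. The brighter probes of these genes, on their RefSeq transcripts, had -0.38 and -0.25 for Aars and -0.49 and -0.36 for Iars. Of the 14 members with more than 1 measured probe, Sesn2 alone had probes on both sides of 0.

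**Figure D3:**
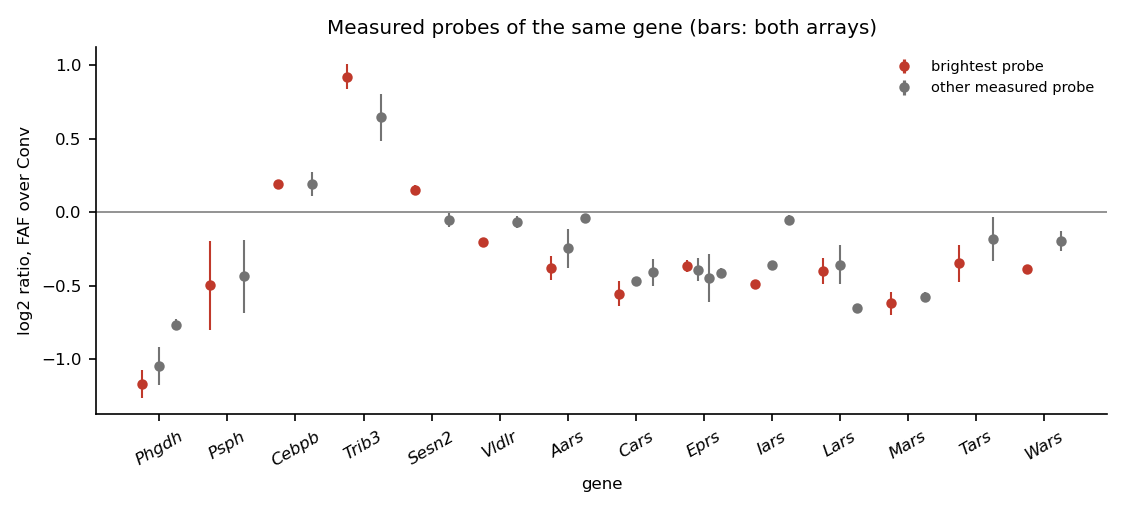
Log2 ratio of FAF over Conv for every measured probe of the 14 genes that have more than 1, with the brightest probe in red, the others in grey and bars reaching to the value of each array. The 4 Eprs probes lie close together, the third Phgdh probe is nearer 0 than the first, at -0.77 against -1.17, and the dim probes of Aars and Iars sit close to 0.

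The synthetases outside the group of 12 were described beside it, with no test of the difference. Of 8 other cytosolic enzymes and 3 scaffold proteins of the multi-synthetase complex, 10 of 11 were below 0 on both arrays, the median was -0.35 and 0 passed the rule. Vars for valine at -0.70 ± 0.02 and Kars for lysine at -0.58 ± 0.10 were the lowest. Of 17 mitochondrial synthetases, 14 were below 0 on both arrays, with a median of -0.28 and 0 past the rule. Beside both lists, 39.4% of all measured genes were below 0 on both arrays, and the rule took 2.41% in either direction. Yars2, the mitochondrial enzyme for tyrosine, stood at -0.44 ± 0.08. The values below 0 were thus found in both compartments, though less evenly by probe than in the 12. Of the measured probes, 14 of 20 in the first list and 17 of 24 in the mitochondrial list were below 0 on both arrays. The share over all measured probes was 37.7%. The probes of Qars ran from -0.20 to 0.27 and those of Ears2 from -0.43 to 0.47, and Rars2 was above 0 on both arrays, at 0.27.

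Genes further up the pathway differed less by their median than the lists of synthetases. This list holds the eIF2 kinases, eIF2 and its exchange factor eIF2B, besides Gcn1, Impact and Ppp1r15b. Of its 14 measured genes, 0 passed the rule, 8 were below 0 on both arrays and 2 above, and the median was -0.18. The largest were Eif2ak2, the kinase PKR that interferon induces, at -0.48 ± 0.07 and Eif2ak1, the heme-regulated kinase, at 0.43 ± 0.14. The 3 measured probes of Eif2ak1 ranged from 0.07 to 0.43. Eif2ak4, which encodes GCN2 and was singled out after its value was seen, had 0.04 ± 0.11, with its arrays on either side of 0. Of 16 measured other ATF4 targets and partners, 0 passed, 9 were below 0 on both arrays and 6 above. Beside the counts of both lists, 39.4% of all measured genes were below 0 on both arrays and 38.7% above. The rule took 2.41% in either direction. Slc7a1, an importer of cationic amino acids, had -0.79 ± 0.10, whereas Slc3a2, the heavy chain of several amino acid exchangers, had 0.70 ± 0.08 and 0.41 on its other probe.

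Of 9 other measured serine, glycine and folate enzymes, 0 passed and the median was -0.09, with thymidylate synthase Tyms at -0.85 ± 0.05 and the cytosolic folate enzyme Mthfd1 at -0.64 ± 0.09. Of 12 genes of folding in the endoplasmic reticulum and its stress sensors, 0 passed and the median was -0.14. Herpud1, a component of protein degradation at the reticulum, stood at 0.80 ± 0.01 and the folding enzyme Pdia4 at -0.59 ± 0.01. Both lists were spread to either side of 0, and the rule took 2.41% of all measured genes in either direction. Tyms is also among the markers of proliferating cells below, and Xbp1 of the folding list is also among the plasma cell markers.

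**Figure D4:**
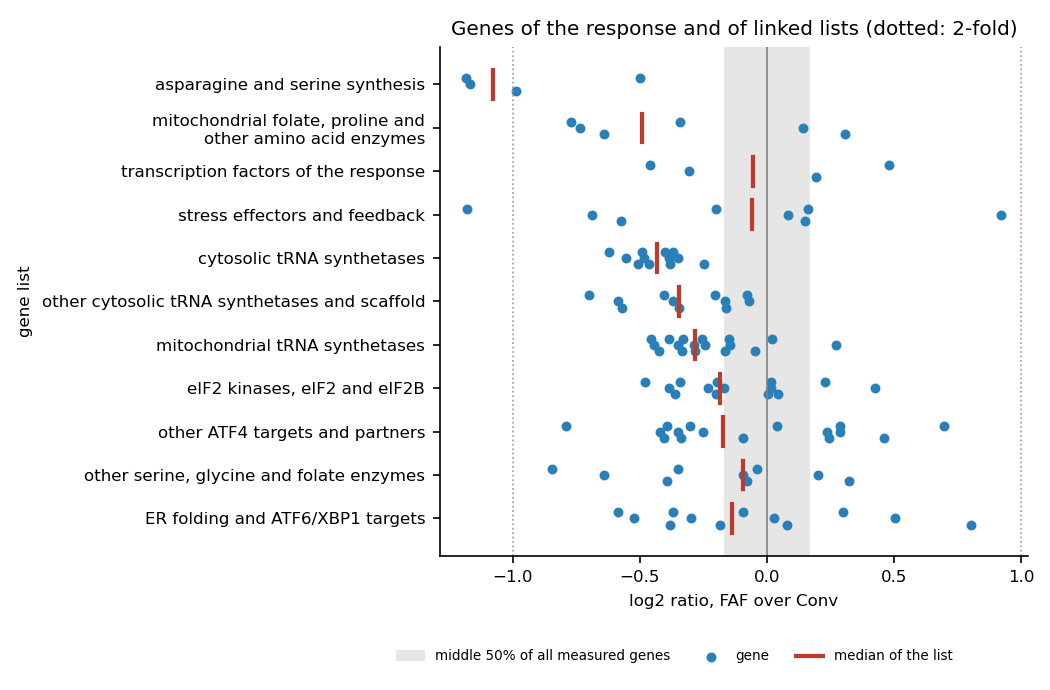
Log2 ratio of FAF over Conv for each measured gene (blue) of the 5 role groups and 6 linked lists, with the list's median in red and the band from the 25th to the 75th percentile of all measured genes in grey. The 12 synthetases all lie left of the band, the asparagine and serine genes have the lowest median, at -1.08, and the transcription factors and stress effectors straddle it.

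Markers of cell types and of dividing cells differed in the same samples. The rule took 0.88% of all measured genes as lower and 1.53% as higher. Of 10 markers of proliferating cells 3 were lower by the rule and 0 higher, with a median of -0.85. Their mean log2 intensity was 10.4 on both arrays in FAF, against 11.1 and 11.2 in Conv, and all 10 were measured. All 9 enterocyte markers were measured, as the tissue label asks, and by the rule 5 of them were higher and 0 lower. Their median was 1.31, at a mean intensity of 16.3 and 16.4 in FAF, against 14.99 and 15.3 in Conv. Plasma cell markers had 1 of 8 lower and a median of -0.61, at 10.8 on both arrays in FAF, against 11.4 on both in Conv. Paneth cell markers had 3 of 7 lower and a median of -0.90, at 14.5 and 14.3 in FAF, against 15.2 and 15.3 in Conv. The part of these cells in the ratios of the response genes was not tested.

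Lists for neighbouring tissue are given likewise, beside the 0.88% of all measured genes that were lower by the rule and the 1.53% higher. Fat tissue markers had 5 of 8 lower and 1 higher, with a median of -1.203, at 9.03 and 9.15 in FAF, against 10.2 and 10.3 in Conv, and Lep was not measured. Smooth muscle markers had 0 of 8 past the rule and a median of -0.60, at 12.8 on both arrays in FAF, against 13.5 and 13.4 in Conv. For the exocrine pancreas, a tissue rich in synthetases, 10 of 11 markers were found on the array and 6 were measured. The mean intensity of these 6 was low, at 7.21 and 7.18 in FAF, against 6.93 and 7.001 in Conv. Cela2a, Prss1, Prss2, Pnlip and Amy2a5, which encode digestive enzymes, were not found on the array or not measured. The median of the 6 was 0.07, and Sycn was higher at 1.28 ± 0.01. For Wars, which interferon gamma induces besides ATF4, the interferon gamma response list is given alongside, with 3 of 10 lower and a median of -0.58, at 10.6 on both arrays in FAF, against 11.4 on both in Conv. The part of fat, muscle, pancreas and interferon in the ratios was not tested.

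**Figure D5:**
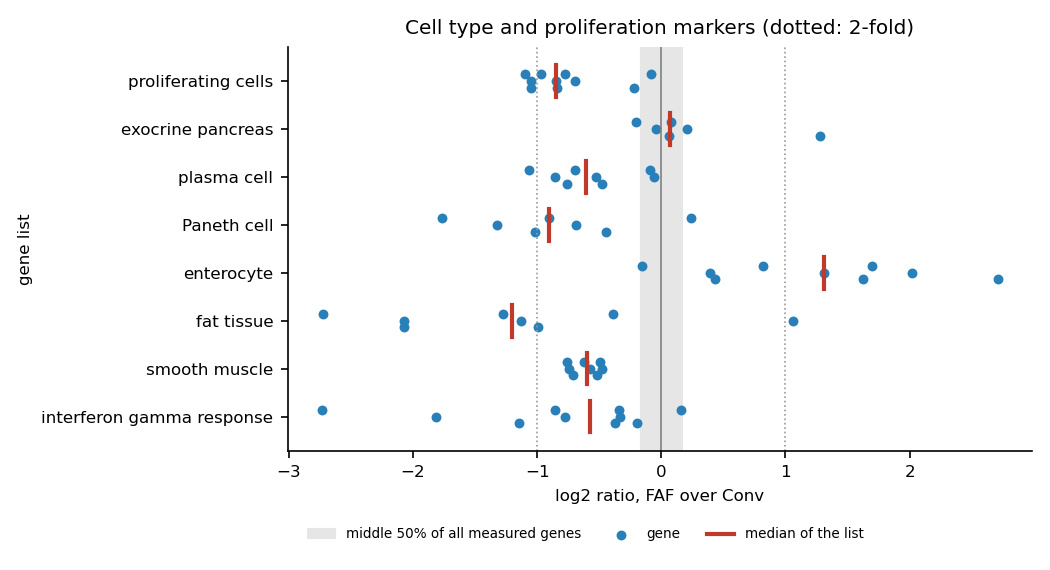
Log2 ratio of FAF over Conv for each measured marker (blue) of 8 lists, with the list's median in red and the band from the 25th to the 75th percentile of all measured genes in grey. The median of the enterocyte markers lies to the right of the band, at 1.31, and the medians of the proliferation, Paneth, plasma cell, fat, smooth muscle and interferon gamma lists lie to its left.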

How the data were processed

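Per the file headers, the deposited spot intensity of each dye, on a linear scale, and its local background came from Agilent Feature Extraction 11.5.1.1, with probe positions in build mm9. That software's own log10 ratio (Cy5 over Cy3) is also in the files, and the authors' deposited value table holds the same log10 ratio, with differences of 5.0e-08 or less and column medians of 0. No spot was saturated.

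Intensities were processed with limma 3.58.1 in R 4.3.3, by normexp background correction with an offset of 50 and loess within each array, control spots at weight 0 and outlier spots left out. With the dyes that the labels give, log2 ratios were expressed as FAF over Conv and averaged over the 2 arrays, which carry the same pair of RNA samples. Intensities per diet were taken after Aquantile scaling. Over all measured genes the arrays' ratios correlated with a Pearson r of 0.898, and the median distance of an array from the mean was 0.056. A gene is represented by its brightest measured probe. RefSeq symbols (GRCm38.p6) were matched for 27668 probes. The rule of size took 0 genes when the sign of the swapped array was left as it was. All members are named, and of each linked list the 2 genes of largest absolute ratio, except one that is not reported here. Members, lists and rules were chosen with earlier results of these data known. The steps were tested on simulated data. The number of arrays and of RNA samples limits the precision.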

Additional observations from a re-analysis of the deposited data

How the results depend on the processing

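Of the 34 members, 33 kept the sign of their ratio under the 10 alternatives on the values. Aldh18a1 was the exception, when the array with FAF in Cy3 was used by itself. The mean ratio of each of the 12 synthetases stayed below 0 under each alternative. Whether each array by itself stayed below 0 was not counted under median centring. Asns, Phgdh and Nupr1 were lower by the rule in the main setting. The software's log ratio and the authors' deposited value table hold the same values. Each added Psat1 and Chac1, giving 5, with 350 genes lower and 487 higher in all. Changing the filter on dim probes left the member ratios as they were, so fewer than 10 of the alternatives are separate checks. A mean of at least 1.5-fold gave 9 members lower and 1 higher, with 616 and 775 genes in all, and a mean of at least 4-fold gave 0 members, with 18 and 31 genes. Median centring in place of loess gave 0 members and 82 genes lower, as the dye trend then stays in each array. Asns, for example, had -0.37 and -1.90 on the arrays and a mean of -1.13. With median centring the arrays' ratios correlated with a Pearson r of only 0.163 over all measured genes, so the match between the arrays depends on loess. Asns, Phgdh, Nupr1, Psat1 and Trib3 kept their direction on both arrays with median centring. The other members were not looked at array by array in this setting. With 1 array alone, 3 to 4 members were lower and 0 to 1 higher, the one being Trib3, with 144 to 172 genes lower and 268 to 286 higher. The mean over a gene's probes lost Phgdh.

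The median of asparagine and serine synthesis was -1.17 with an offset of 10, -1.13 without background correction, -1.03 with median centring, -1.23 with the software's log ratio or the deposited table, -0.99 with the mean over probes, and -1.07 to -1.03 on single arrays. That of the transcription factors changed sign on single arrays, from -0.127 to 0.016, and that of the stress effectors was -0.152 with the software's log ratio or the deposited table. The median of all members was -0.38 with median centring. Signal over background limits dim genes such as Chac1 and Psat1, whose ratios the offset shrinks. One RNA sample per diet limits every ratio. No paired analysis was possible because the result comes from no test.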
